A study of Mus musculus with 16 samples.

Results

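10 genes that mark the lung epithelium were followed in sorted mesenchymal cells: the surfactant genes *Sftpa1*, *Sftpb*, *Sftpc* and *Sftpd*, the secretoglobin genes *Scgb1a1* and *Scgb3a2*, and *Ager*, *Lamp3*, *Epcam* and *Cdh1*. They were chosen by gene symbol as well-known markers of epithelial cells, and all 10 were found once each among the 49452 genes of the deposited tables. The 16 mice formed 4 groups of 4: *Acta2-tdT* mice given saline, *Acta2-tdT* mice given bleomycin, *Pdgfra-tdT* mice given saline and *Pdgfra-tdT* mice given bleomycin, a drug that injures the alveoli and leads to fibrosis. All were on a C57BL6 background and 11 weeks of age, and the left lung was taken on day 14. In both lines a tamoxifen-activated Cre recombinase (CreERT2) switches on the red protein tdTomato for good, under the *Acta2* promoter, active in smooth muscle and myofibroblasts, or the *Pdgfra* promoter, active in fibroblasts. Tamoxifen came with the food (400 mg/kg) from day 5 after instillation in *Acta2-tdT* mice, and as 5 injections of 3 mg at 6 weeks of age in *Pdgfra-tdT* mice, so line and tamoxifen regimen cannot be told apart. Lungs were digested with dispase and tdTomato-positive cells were sorted straight into lysis buffer, and the SmartSeq2 libraries were made from amplified cDNA without strand information.

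Surfactant lines the alveoli and keeps them from collapsing. It is made by alveolar type II cells, which secrete the hydrophobic proteins SP-B and SP-C (*Sftpb*, *Sftpc*) that spread the lipid film and the collectins SP-A and SP-D (*Sftpa1*, *Sftpd*) that bind microbes. *Lamp3* encodes a membrane protein of their lamellar bodies, in which surfactant is stored. Flat type I cells carry the receptor RAGE (*Ager*), club cells of the airways secrete the proteins of *Scgb1a1* and *Scgb3a2*, and *Epcam* and *Cdh1* (E-cadherin) encode adhesion molecules of epithelia in general. A sort for mesenchymal cells is meant to leave all of these behind. In bulk RNA of sorted cells, fewer cells of a type and less RNA per cell cannot be told apart.

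The transcription factor NKX2-1 switches on surfactant genes in type II cells, and its core motif, CTCAAG, was searched on both strands of the 5 promoters at hand, those of *Sftpa1*, *Sftpb*, *Ager*, *Lamp3* and *Epcam*. The first 2 held it and are shown for that. The stretches are the 250 bases before the RefSeq start site (build GRCm38.p6), with the motif in capitals: *Sftpa1* at chr14:41131538-41131787 and *Sftpb* at chr6:72304360-72304609, both on the plus strand.
Sftpa1: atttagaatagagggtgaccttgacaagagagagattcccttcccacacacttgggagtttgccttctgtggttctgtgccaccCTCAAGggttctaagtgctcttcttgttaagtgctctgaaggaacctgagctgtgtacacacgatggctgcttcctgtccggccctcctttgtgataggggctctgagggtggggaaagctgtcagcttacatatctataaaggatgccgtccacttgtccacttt
Sftpb: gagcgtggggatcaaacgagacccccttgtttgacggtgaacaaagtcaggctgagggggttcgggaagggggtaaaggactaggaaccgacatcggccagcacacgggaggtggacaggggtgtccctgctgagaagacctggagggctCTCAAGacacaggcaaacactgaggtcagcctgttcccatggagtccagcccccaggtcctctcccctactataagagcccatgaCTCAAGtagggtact
*Sftpa1* held 1 match, 166 bases before the start, and *Sftpb* held 2, starting 100 and 15 bases before it. Of 32851 mouse promoters of 300 bases, 15.9% held the motif, and 3.65% held that of the FOXA factors, TGTTTAC, which of the 5 promoters *Lamp3* alone held. Such a match is a description of the letters and not a measured binding site. *Nkx2-1* itself was between 0 and 0.424 FPKM in the 16 mice, and *Foxa2* between 0 and 0.960 FPKM. FPKM count fragments per transcript length against all fragments mapped, and so are a level per length, as the authors deposited it. The depth behind it is unknown.

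The sum of FPKM over 21961 nuclear protein-coding genes was 241916 to 466183 in *Acta2-tdT* bleomycin mice and 29727 to 147467 in the other 12 mice. Raw FPKM are therefore given beside scaled values, in which each mouse is divided by this sum, either as parts in 1000000 of it (ppm) or, for tests, brought to the mean sum of the mice compared. Olfactory and vomeronasal receptor genes (1412 genes) were taken as a set of low genes. Their median was 0.0129 to 0.120 FPKM in *Acta2-tdT* bleomycin mice and 0.0919 to 0.333 FPKM in the others. The 95th percentile of the set in a mouse was used as a low reference level. It was lower in *Acta2-tdT* bleomycin mice, at 0.515 to 2.05 FPKM, than in the others, at 2.26 to 4.11 FPKM. As a check of the labels, *Acta2* was at 139 to 314 FPKM in *Acta2-tdT* saline and 1229 to 3211 FPKM in *Acta2-tdT* bleomycin mice, against 0.831 to 19.4 FPKM in *Pdgfra-tdT* mice. *Pdgfra* was at 2.14 to 3.82 FPKM in *Pdgfra-tdT* saline and 0.977 to 2.45 FPKM in *Pdgfra-tdT* bleomycin mice, against 0.273 to 0.562 FPKM in *Acta2-tdT* saline and 2.49 to 11.9 FPKM in *Acta2-tdT* bleomycin mice. On raw FPKM the *Pdgfra* level thus did not set *Pdgfra-tdT* bleomycin mice above *Acta2-tdT* bleomycin mice. The check was not made on scaled values, and the nuclear protein-coding sums of these 2 groups differ. *Pdgfra-tdT* saline mouse 3 and bleomycin mouse 5 stood apart, with summed endothelial genes of 720 and 1592 FPKM, the highest of their groups.

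*Scgb1a1*, on chromosome 19 (9083636 to 9087958, minus strand, in the GRCm38 coordinates of the deposited tables), was the most abundant of the 10 genes in 15 of 16 mice and lay above the receptor reference in all 16. In *Acta2-tdT* saline mice it was at 63.5, 42.8, 767 and 143 FPKM, in the order of the mouse numbers 1 to 4. In *Acta2-tdT* bleomycin mice (5 to 8) it was at 1516, 582, 266 and 732 FPKM. In *Pdgfra-tdT* mice it was at 41.5, 126, 23.7 and 33.3 FPKM with saline and at 37.3, 94.6, 33 and 215 FPKM with bleomycin. The *Acta2-tdT* bleomycin mice were all above all *Pdgfra-tdT* mice, while *Acta2-tdT* saline mouse 3 lay among them and apart from the rest of its own group. By FPKM, *Scgb1a1* was between the 6th and the 658th from the top among nuclear protein-coding genes. This club cell transcript was thus among the highest in libraries of cells sorted for a mesenchymal reporter. Whether the sorted cells made it or it was carried along from club cells was not tested. As a share of nuclear protein-coding FPKM the order of the groups was lost: the medians with saline and with bleomycin were 2008 and 1987 ppm in the *Acta2-tdT* line and 1154 and 1243 ppm in the *Pdgfra-tdT* line, and each group's range overlapped those of the others.

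*Scgb3a2*, the secretoglobin shared by club and other secretory cells of the airways, was far lower than *Scgb1a1* on the same scale. It was at 0.853, 1.24, 12.7 and 3.54 FPKM in *Acta2-tdT* saline mice and at 11.8, 7.58, 6.54 and 7.93 FPKM in *Acta2-tdT* bleomycin mice. In *Pdgfra-tdT* mice it was at 1.52, 3.67, 3.33 and 0.446 FPKM with saline and at 1.38, 9.10, 0.627 and 2.94 FPKM with bleomycin. *Acta2-tdT* saline mouse 3 was again the highest of its group. The *Acta2-tdT* bleomycin mice lay above all *Pdgfra-tdT* saline mice, and every other pair of groups overlapped. The ratio of *Scgb1a1* to *Scgb3a2* FPKM ran from 7.11 to 129 over the 16 mice, with a median of 46.6. *Cyp2f2*, a cytochrome P450 that club cells express strongly, was between 0.0544 and 9.95 FPKM, and reached 1 FPKM in 6 of 16 mice.

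*Sftpc*, on chromosome 14 (70520941 to 70524081, minus strand), was first or second among the 10 genes in 11 mice. It was at 2.89, 0.615, 15.5 and 7.01 FPKM in *Acta2-tdT* saline mice and at 12.2, 221, 19.9 and 170 FPKM in *Acta2-tdT* bleomycin mice. In *Pdgfra-tdT* mice it was at 6.97, 1.39, 1.92 and 15.5 FPKM with saline and at 78.5, 49.0, 5.78 and 2.73 FPKM with bleomycin. Both bleomycin groups thus split into 2 high and 2 lower mice. As a share, its medians with saline and with bleomycin were 95.6 and 205 ppm in the *Acta2-tdT* line and 139 and 331 ppm in the *Pdgfra-tdT* line, and all 4 ranges overlapped.

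The collectin genes were lower. *Sftpa1*, on chromosome 14 (41131782 to 41136452, plus strand), was at 0.543, 0.510, 1.61 and 0.902 FPKM in *Acta2-tdT* saline mice and at 2.24, 34.3, 3.42 and 30.0 FPKM in *Acta2-tdT* bleomycin mice, with mice 6 and 8 high as for *Sftpc*. In *Pdgfra-tdT* mice it lay between 0.308 and 3.10 FPKM, and was above the receptor reference in none of the 8. *Sftpd* was at 0.214, 0.712, 1.35 and 1.14 FPKM in *Acta2-tdT* saline mice and at 2.58, 7.21, 5.93 and 10.3 FPKM in *Acta2-tdT* bleomycin mice, and at 0.255 to 1.56 FPKM in *Pdgfra-tdT* mice. On raw FPKM the *Acta2-tdT* bleomycin mice were all above all saline mice of their line for both genes. As a share they overlapped them, at 6.90 to 142 against 13.9 to 32.5 ppm for *Sftpa1* and at 7.96 to 29.8 against 5.63 to 27.2 ppm for *Sftpd*.

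*Sftpb* and *Lamp3*, like *Sftpc* genes of type II cells, were lower than *Sftpc* in each of the 16 mice. *Sftpb* was at 0.120 to 0.186 FPKM in *Acta2-tdT* saline mice, at 0.0854, 1.48, 1.80 and 2.37 FPKM in *Acta2-tdT* bleomycin mice and at 0 to 0.426 FPKM in *Pdgfra-tdT* mice, where 2 mice were listed at 0. It lay above the receptor reference in 2 mice, both of the *Acta2-tdT* bleomycin group, where that reference was lowest. In the 14 mice where *Sftpb* was above 0, *Sftpc* was 4.17 to 154 times as high, with a median ratio of 50.8. The deposited lower bound of *Sftpb* was above 0 in only 5 of 16 mice, so most of these ratios are uncertain. *Lamp3* was at 0 to 0.365 FPKM over all 16 mice, listed at 0 in 3, and above the receptor reference in none. *Abca3*, which carries lipid into lamellar bodies, was at 0.0182 to 1.34 FPKM, and *Slc34a2*, the phosphate carrier of type II cells, at 0 to 1.18 FPKM. *Napsa*, a protease that processes surfactant proteins, was at 0.194 to 16.1 FPKM, and was above the receptor reference in 4 mice.

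*Ager*, on chromosome 17 (34597862 to 34600936, plus strand), was at 1.98, 0.144, 2.36 and 6.23 FPKM in *Acta2-tdT* saline mice and at 12.3, 28.5, 16.2 and 21.7 FPKM in *Acta2-tdT* bleomycin mice. In *Pdgfra-tdT* mice it was at 1.68, 0.350, 0.547 and 0.794 FPKM with saline and at 3.58, 4.05, 1.02 and 0.337 FPKM with bleomycin. The *Acta2-tdT* bleomycin mice were above all the others. As a share of nuclear protein-coding FPKM they overlapped the others, at 36.9 to 118 ppm against 3.92 to 102 ppm in *Acta2-tdT* saline and 8.94 to 74.5 ppm in *Pdgfra-tdT* mice. *Hopx* and *Rtkn2*, further genes of type I cells, were at 0 to 0.540 and 0.217 to 1.47 FPKM.

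*Epcam* was at 0.0471, 0.219, 0.284 and 0.117 FPKM in *Acta2-tdT* saline mice, at 1.21, 1.30, 1.18 and 1.40 FPKM in *Acta2-tdT* bleomycin mice and at 0.0310 to 0.926 FPKM in *Pdgfra-tdT* mice. On raw FPKM the *Acta2-tdT* bleomycin mice were the highest. *Epcam* lay above the receptor reference in only 2 mice, both of that group, so its shares rest on low levels. As a share the order turned, with 2.68 to 5.37 ppm in *Acta2-tdT* bleomycin and 5.54 to 17.0 ppm in *Pdgfra-tdT* bleomycin mice, which did not overlap (exact two-sided permutation p = 0.0286, the smallest these groups can give; 0.571 after adjustment over 40 tests). *Cdh1* was at 0 to 0.322 FPKM in 15 mice and at 1.28 FPKM in *Acta2-tdT* bleomycin mouse 7. The GENCODE annotation had no other gene overlapping any of the 10.

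**Figure D1:**
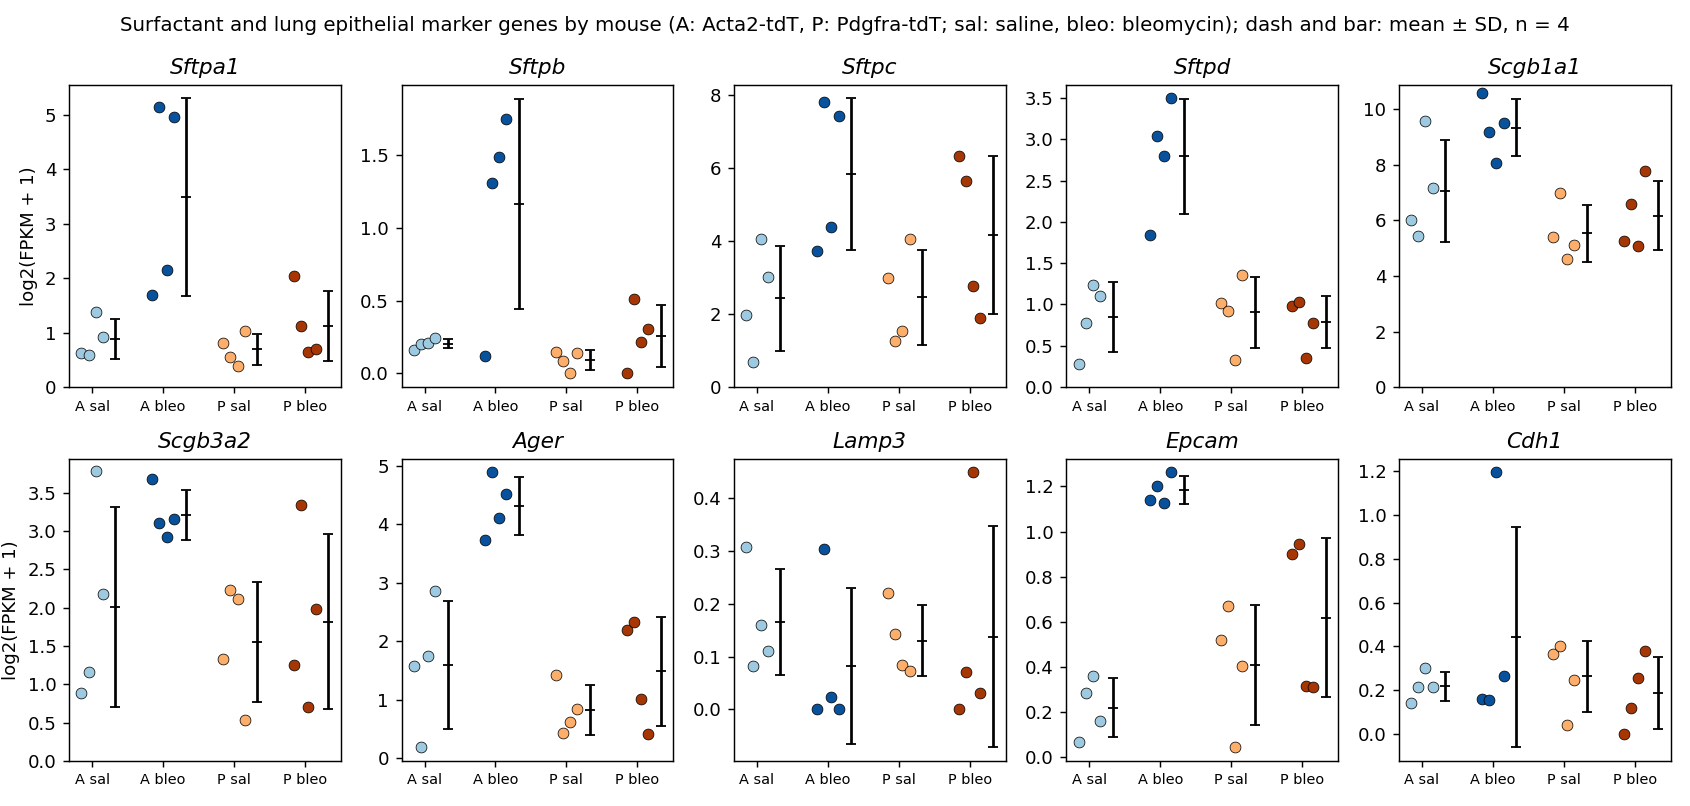
Each panel shows 1 gene, with log2(FPKM + 1) on the vertical axis and the 4 groups on the horizontal axis. Points are mice and the dash with its bar is the mean ± SD (n = 4). *Epcam*, *Ager* and *Sftpd* in *Acta2-tdT* bleomycin mice lie above all other mice, while *Lamp3* and *Cdh1* stay near 0 but for single mice.

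The 10 genes together made up 0.127 to 1.62% of nuclear protein-coding FPKM in *Acta2-tdT* saline mice, 0.0732 to 0.480% in *Acta2-tdT* bleomycin mice, 0.0493 to 0.445% in *Pdgfra-tdT* saline mice and 0.0852 to 0.752% in *Pdgfra-tdT* bleomycin mice. The medians were 0.226, 0.287, 0.165 and 0.195%, and the ranges overlapped. *Scgb1a1* alone was 29.7 to 97.3% of the sum of the 10 genes in a mouse. Without it, the other 9 made up 0.0104 to 0.125% of nuclear protein-coding FPKM.

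*Scgb1a1* and *Sftpc* did not keep 1 proportion from mouse to mouse. The ratio of *Scgb1a1* to *Sftpc* FPKM, which no scaling of a mouse can alter, was 0.475 in *Pdgfra-tdT* bleomycin mouse 5 and 124 in *Acta2-tdT* bleomycin mouse 5, with a median of 12.8. Within *Acta2-tdT* bleomycin mice alone it took the values 124, 2.63, 13.4 and 4.31. The ratio of *Sftpc* to *Sftpa1* in the same 4 mice was 5.45, 6.43, 5.82 and 5.66, nearly the same proportion. The other surfactant genes did not keep it, since *Sftpc* over *Sftpd* was 4.72, 30.6, 3.36 and 16.5 in these mice. *Sftpc* over *Sftpb* was 143, 150, 11.1 and 71.8. The first of these is uncertain, since *Sftpb* in that mouse was at 0.0854 FPKM with a deposited lower bound of 0. In the other 12 mice, where *Sftpa1* was at most 3.10 FPKM, the ratio of *Sftpc* to *Sftpa1* ran from 1.21 to 41.2.

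**Figure D2:**
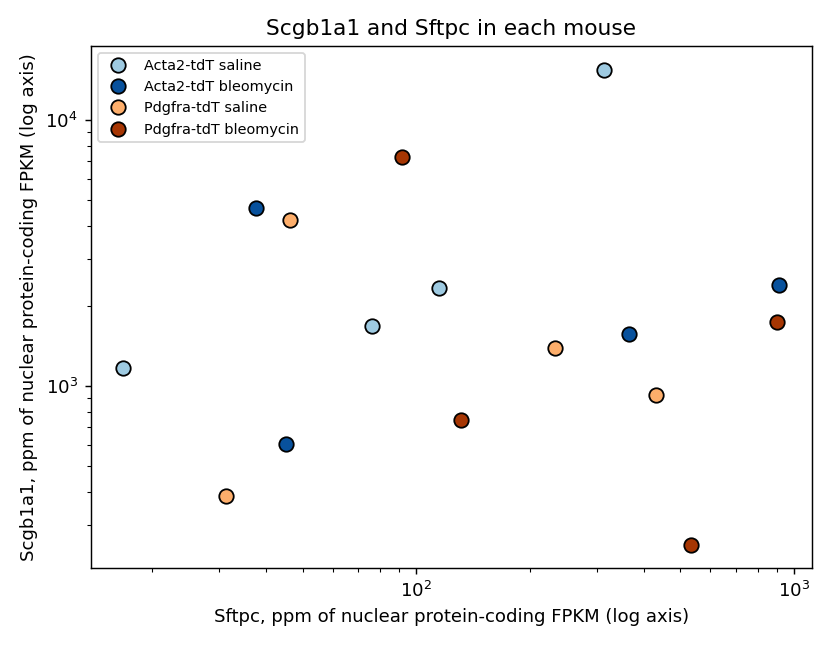
*Scgb1a1* (vertical) is plotted against *Sftpc* (horizontal), both in ppm of nuclear protein-coding FPKM on log axes, with 1 point a mouse, coloured by group. The points do not line up: mice with 2404 and 253 ppm of *Scgb1a1* have 913 and 532 ppm of *Sftpc*.

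To see which transcripts varied with these 2 genes from mouse to mouse, deviations of log2(scaled FPKM + 1) from the group means were compared over 16 mice among 10375 protein-coding genes. The 5 most like *Sftpc* were *Katna1* (Pearson r 0.84), *Sftpa1* (0.82), *Gsta4* (0.80), *Htra1* (0.75) and *Ager* (0.74), so that 2 of them were alveolar genes of the same set. The 5 most like *Scgb1a1* were *Tspan5* (0.91), *Ankrd1* (0.87), *Gnai1* (0.86), *Asb5* (0.83) and *Prorsd1* (0.83), and *Scgb3a2* came 13th with 0.78. *Scgb1a1* and *Sftpc* had an r of 0.10 with each other, whereas *Sftpd* had an r of 0.54 with *Scgb1a1* and of 0.53 with *Sftpc*. The points share libraries and their scaling, and the r values describe these mice only.

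Bleomycin was compared with saline within *Acta2-tdT* cells by limma on log2(FPKM + 1), with Benjamini-Hochberg adjustment over all genes tested, those with at least 1 FPKM in at least 4 of the 8 mice. Of the 10 genes 7 passed this filter, and 6 were called higher with bleomycin, where 70.4% of the 12523 genes tested were higher and 16.3% lower. Of these *Epcam* reached 1 FPKM in bleomycin mice only, so that the filter admitted it through the group where it was high, and its difference of 0.96 ± 0.13 (log2, SE) is given without a p. The rise was 3.41 ± 1.01 (log2, SE; adjusted p = 0.00907) for *Sftpc*, 2.72 ± 0.52 (adjusted p = 0.000663) for *Ager* and 2.60 ± 0.75 (adjusted p = 0.00743) for *Sftpa1*. It was 2.28 ± 0.87 (adjusted p = 0.0299) for *Scgb1a1* and 1.95 ± 0.37 (adjusted p = 0.000621) for *Sftpd*. *Scgb3a2* differed by 1.21 ± 0.57 (adjusted p = 0.0681). The median over the 7 genes was 2.28, against 1.76 over all genes tested. *Epcam* was not tested when any 1 of the bleomycin mice was left out. *Scgb1a1* lost its call with no filter on low values (adjusted p = 0.0891). It also lost it without saline mouse 1 or 2 or bleomycin mouse 5, 6 or 8 (adjusted p = 0.0560 to 0.0822). The raw levels of the 2 groups overlapped for *Scgb1a1* and *Sftpc* (exact two-sided permutation p = 0.114 and 0.0571). *Scgb3a2* was called without saline mouse 3 (1.80, adjusted p = 0.00154).

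With each mouse scaled to its nuclear protein-coding sum, limma called 0 of the 7 genes, where 24.0% of all genes were higher and 31.9% lower, and none of the 7 had an unadjusted p under 0.05. *Sftpc* was then 0.86 ± 1.12 (log2, SE; adjusted p = 0.532), *Ager* 0.50 ± 0.72 (adjusted p = 0.574), *Sftpa1* 0.63 ± 0.79 (adjusted p = 0.514), *Sftpd* 0.05 ± 0.42 (adjusted p = 0.930), *Scgb1a1* -0.68 ± 0.87 (adjusted p = 0.521), *Scgb3a2* -1.19 ± 0.65 (adjusted p = 0.145) and *Epcam* 0.03 ± 0.23. The median over the 7 was 0.05 and that of all genes -0.01. The higher FPKM of the epithelial markers after bleomycin in *Acta2-tdT* cells was thus no longer called once the larger nuclear protein-coding sum of those mice was taken into account. The standard errors leave room for changes of either sign. In 3 genes outside the filter, the exact two-sided permutation test over 70 labellings gave p = 0.143 for *Sftpb*, 0.371 for *Lamp3* and 0.714 for *Cdh1* on raw FPKM. On scaled FPKM *Lamp3* was lower with no overlap (exact p = 0.0286, the smallest these groups can give; 0.571 after adjustment over the 40 tests of this kind), at levels of 0.237 FPKM or less.

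In bleomycin-treated mice, the lines were compared in the same way, and the *Acta2-tdT* bleomycin mice of the comparison above entered this one too. On raw FPKM 6 of 7 tested genes were higher in *Acta2-tdT* than in *Pdgfra-tdT* cells, where 71.0% of 11995 genes were higher and 8.61% lower. *Scgb1a1* was higher by 3.16 ± 0.96 (log2, SE; adjusted p = 0.0101), *Ager* by 2.82 ± 0.57 (adjusted p = 0.00115), *Sftpa1* by 2.36 ± 0.77 (adjusted p = 0.0146) and *Sftpd* by 2.01 ± 0.41 (adjusted p = 0.00115). *Scgb3a2* was higher by 1.39 ± 0.57 (adjusted p = 0.0396), while *Sftpc* differed by 1.68 ± 1.24 (adjusted p = 0.224). *Epcam*, the other gene called, reached 1 FPKM in no *Pdgfra-tdT* bleomycin mouse, so here too the filter admitted it through the group where it was high, and its difference of 0.56 ± 0.24 is given without a p. *Scgb3a2* lost its call without any 1 of the *Acta2-tdT* mice or without *Pdgfra-tdT* mouse 5 or 7 (adjusted p = 0.0569 to 0.139). With no filter on low values *Sftpa1* (adjusted p = 0.0838) and *Scgb3a2* (0.122) were no longer called, and the *Sftpa1* levels of the lines overlapped (exact two-sided permutation p = 0.0571). On scaled FPKM 0 of the 7 were called by limma, and 0 had an unadjusted p under 0.05, where 16.2% of all genes were higher and 17.0% lower. The direction of *Scgb3a2* (-0.73 ± 0.80), *Sftpc* (-0.79 ± 1.12) and *Epcam* (-0.67 ± 0.30) then turned. The median of all genes moved from 1.81 to 0.37 with the scaling and that of the 7 from 2.01 to 0.33.

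In saline-treated mice 5 of the 10 genes were tested and limma called 0, also at an unadjusted p under 0.05, on both scales. Of 8153 genes tested, 2.72% were higher in *Acta2-tdT* cells and 0.184% lower on raw FPKM, and 3.01% and 0.245% on scaled FPKM. *Scgb1a1* differed by 1.52 ± 0.95 (log2, SE; adjusted p = 0.535), *Ager* by 0.76 ± 0.53 (adjusted p = 0.578) and *Sftpc* by -0.04 ± 0.87 (adjusted p = 0.995). *Sftpb* was higher in *Acta2-tdT* mice without overlap (exact p = 0.0286, 0.127 after adjustment over 40 tests), but at 0.120 to 0.186 FPKM against 0 to 0.109 FPKM, and on scaled FPKM the groups overlapped (exact p = 0.20).

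In *Pdgfra-tdT* cells, 4 of the 10 genes were tested between bleomycin and saline and limma called 0, also at an unadjusted p under 0.05, on both scales. On raw FPKM 0.0275% of 7275 genes were higher and 0.0962% lower, and on scaled FPKM 0.0275% and 0.124%. *Sftpc* differed by 1.69 ± 1.13 (log2, SE; adjusted p = 0.791), with a median of 27.4 against 4.45 FPKM and overlapping groups. *Scgb1a1* differed by 0.64 ± 0.80 (adjusted p = 0.793) and *Ager* by 0.66 ± 0.48 (adjusted p = 0.791). Without *Pdgfra-tdT* saline mouse 3 and bleomycin mouse 5, the 2 mice with high endothelial genes, limma again called 0 of them.

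Whether bleomycin acted differently in the lines was tested by the interaction over all 16 mice. On raw FPKM 3 of 7 genes were called with a larger difference in *Acta2-tdT* cells, where 36.6% of 16605 genes did and 3.20% had a smaller one. These were *Sftpd* (2.06 ± 0.49, adjusted p = 0.00500), *Ager* (2.06 ± 0.77, adjusted p = 0.0453) and *Epcam* (0.75 ± 0.26). Of the 16 mice *Epcam* reached 1 FPKM in 4, all *Acta2-tdT* bleomycin, so that this group alone brought it into the test, and no p is given for it. *Ager* lost its call with no filter (adjusted p = 0.1003), with a pseudocount of 0.1 (0.154) and without *Acta2-tdT* mouse 1, 2, 3, 6, 7 or 8 or *Pdgfra-tdT* mouse 1, 3, 4, 7 or 8 (0.0583 to 0.0944). When 1 mouse was left out, *Sftpd* kept its call each time. It was the only gene called without *Acta2-tdT* mouse 1, 2, 6 or 8 or *Pdgfra-tdT* mouse 1, 4, 7 or 8. *Epcam* was not tested when any 1 of the *Acta2-tdT* bleomycin mice was left out, so its call could not be counted there. On scaled FPKM limma called 0 of the 7, with 0 at an unadjusted p under 0.05, where 1.14% of all genes had a positive and 1.26% a negative interaction.

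**Figure D3:**
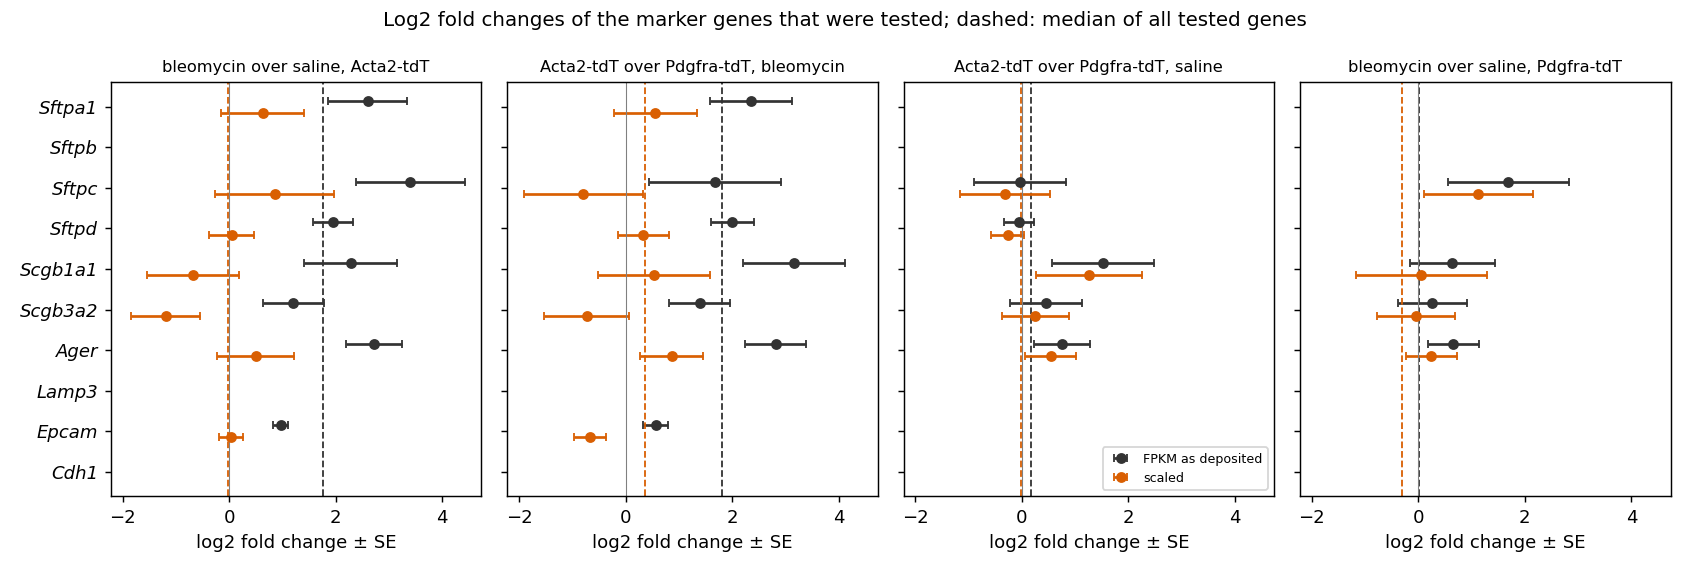
Log2 fold changes (horizontal, ± SE from limma) are drawn for each gene tested, in the 4 comparisons, on raw FPKM (black) and on FPKM scaled to the nuclear protein-coding sum (orange). Dashed lines are the medians of all genes tested. In the first 2 panels the black medians lie at 1.76 and 1.81 and every orange point lies to the left of the black point of its gene. Genes with no point were not tested.

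Further lists of epithelial genes were set beside the 10. In *Acta2-tdT* cells after bleomycin, 12 of 14 tested type II genes (20 in the list) were higher on raw FPKM, 8 of 8 type I genes (of 16), 5 of 6 club and secretory genes (of 18) and 9 of 9 general epithelial genes (of 20), where 70.4% of all genes tested were higher. Many of these entered the test through the group where they were high: 7 of the 9 general epithelial, 5 of the 14 type II and 3 of the 8 type I genes reached 1 FPKM in bleomycin mice only, as did 27.2% of all genes tested. Their counts are therefore a description. On scaled FPKM, where 24.0% of all genes were higher and 31.9% lower, 5 type II genes were higher and 1 lower, 5 type I genes higher and 1 lower, 1 club and secretory gene higher and 1 lower, and 5 general epithelial genes higher and 0 lower. The 2 tested ciliated genes (of 12) were both higher on raw FPKM, and 1 was lower on scaled FPKM. The 3 tested genes of basal and transitional cells (of 9), 2 of which reached 1 FPKM in bleomycin mice only, were all higher on raw FPKM and 2 on scaled FPKM. Both tested epithelial transcription factors (of 12), *Gata6* and *Sox9*, were higher on raw FPKM and 0 on scaled FPKM. *Sox9* reached 1 FPKM in bleomycin mice only. Of the 12 factors, 8 stayed under 1 FPKM in all *Acta2-tdT* bleomycin mice, and *Nkx2-1* and *Foxa2* reached 1 FPKM in none of the 16 mice.

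**Figure D4:**
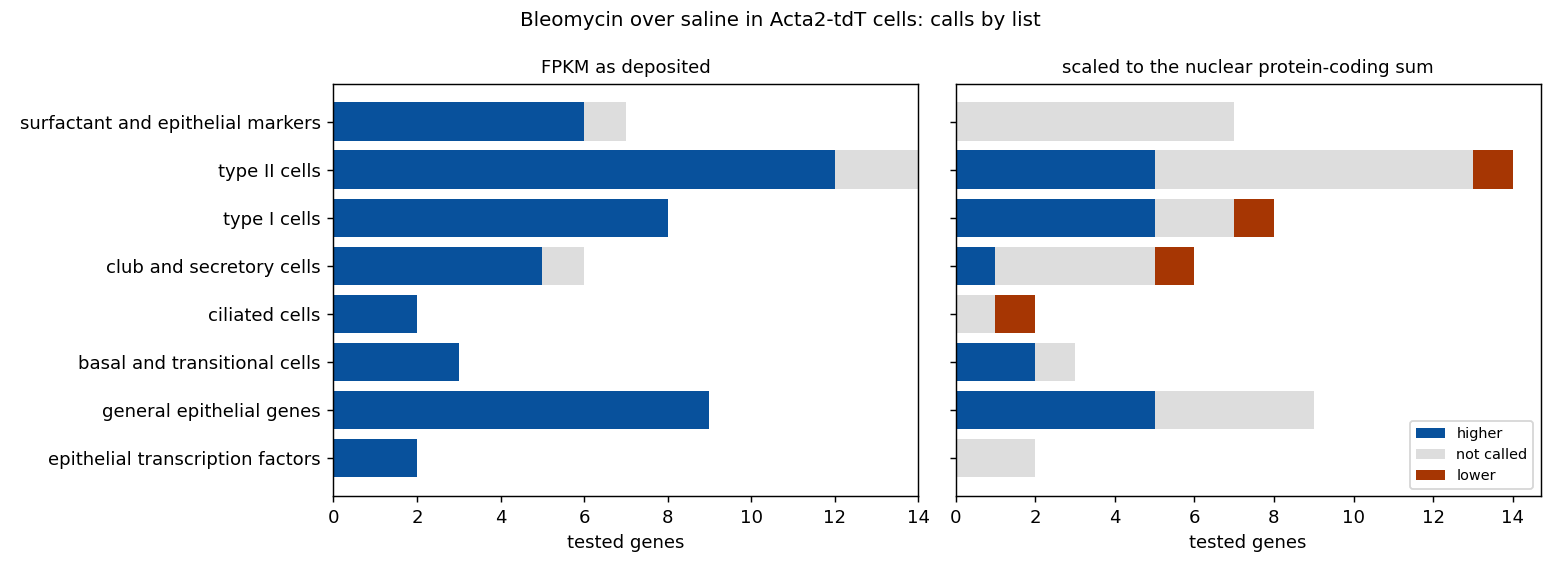
Bars count the tested genes of each list (horizontal) that limma called higher, lower or not at all for bleomycin over saline in *Acta2-tdT* cells, on raw FPKM (left) and scaled FPKM (right). On scaled FPKM the bars show 0 of 7 markers, 5 of 14 type II, 5 of 8 type I and 1 of 6 club and secretory genes as higher. The same bars show 5 of 9 general epithelial and 2 of 3 basal and transitional genes as higher, and 0 of the ciliated genes and transcription factors. Of all genes tested, 24.0% were higher. In bleomycin mice only, 7 of the 9 general epithelial, 5 of the 14 type II and 3 of the 8 type I genes had reached 1 FPKM.

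The most abundant general epithelial genes differed among themselves. *Krt8*, a keratin of simple epithelia, was at 0.384 to 0.706 FPKM in *Acta2-tdT* saline and 15.1 to 27.9 FPKM in *Acta2-tdT* bleomycin mice, a difference of 3.70 ± 0.28 (log2, SE) on raw and 1.80 ± 0.31 on scaled FPKM. Its partner *Krt18* was at 0.188 to 0.461 and 16.3 to 23.7 FPKM, a difference of 3.92 ± 0.25 and 2.27 ± 0.31. *Spint2*, a protease inhibitor, rose by 1.54 ± 0.45 (adjusted p = 0.00776) on raw FPKM and was at -0.94 ± 0.51 (adjusted p = 0.143) on scaled FPKM. *Cldn3*, a claudin of tight junctions, rose by 2.11 ± 0.37 (adjusted p = 0.000364) on raw FPKM and was at 0.28 ± 0.58 (adjusted p = 0.694) on scaled FPKM. *Cldn4*, a tight junction gene of the basal and transitional list known from injured alveolar epithelium, was listed at 0 to 0.0215 FPKM with saline and 2.89 to 7.17 FPKM with bleomycin. *Krt8*, *Krt18* and *Cldn4* passed the filter through the bleomycin mice alone, so their values are given without a p. *Krt8* was at most 3.42 FPKM in all *Pdgfra-tdT* mice.

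Apart from *Foxj1*, the genes described here and in the paragraph before are among the 5 of highest mean FPKM of their list over the 16 mice. This choice favours genes high in *Acta2-tdT* bleomycin mice, so these genes do not stand for the whole lists counted above. *Vegfa* of the type I list and *Cd36* of the type II list were called higher on raw FPKM only, and were at 0.04 ± 0.49 (adjusted p = 0.955) and 0.21 ± 0.34 (adjusted p = 0.615) on scaled FPKM. *Igfbp2*, a growth factor binding protein of type I cells, was at 0.142 to 0.304 FPKM with saline and 59.1 to 129 FPKM with bleomycin, a difference of 6.22 ± 0.32 (log2, SE) on raw and 4.74 ± 0.23 on scaled FPKM, given without a p since it too passed the filter through the bleomycin mice alone. *Pdpn*, also made by fibroblasts, rose by 4.23 ± 0.36 and 2.37 ± 0.35 (adjusted p = 1.27e-05 and 0.000377). *Ctsh*, a protease that processes surfactant protein and is also found in macrophages, rose by 4.20 ± 0.46 and 1.57 ± 0.36 (adjusted p = 2.24e-05 and 0.00477). *Fabp5*, also a macrophage gene, rose by 4.44 ± 0.41 and 2.12 ± 0.35 (adjusted p = 1.48e-05 and 0.000821). In the ciliated list 2 of 12 genes were tested. *Tppp3*, a tubulin-binding protein, rose by 1.67 ± 0.46 (adjusted p = 0.00571) on raw FPKM and fell by 1.26 on scaled FPKM (adjusted p = 0.0117). *Mlf1* rose by 1.35 ± 0.38 (adjusted p = 0.00681) on raw FPKM and was at -0.45 ± 0.50 (adjusted p = 0.463) on scaled FPKM. *Foxj1*, which sets up motile cilia, was listed at 0 in 13 of 16 mice.

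Of the named genes of the epithelial lists, *Hp* and *Lcn2* were called higher in *Acta2-tdT* than in *Pdgfra-tdT* cells of saline-treated mice on both scales. *Hp* (haptoglobin), in the club and secretory list, was at 9.81 to 40.3 against 0.745 to 1.07 FPKM (3.47 ± 0.42, adjusted p = 0.00560), and *Lcn2* (lipocalin 2), in the list of basal and transitional cells, at 3.53 to 36.6 against 0.370 to 0.810 FPKM (3.50 ± 0.64). *Lcn2* reached 1 FPKM in no *Pdgfra-tdT* saline mouse and passed the filter through the *Acta2-tdT* mice alone, so no p is given for it. Both are also made by neutrophils. The neutrophil genes *S100a8* and *S100a9* moved with them, at 460 to 892 and 214 to 404 FPKM in *Acta2-tdT* saline mice against 10.9 to 27.2 and 4.04 to 9.09 FPKM in *Pdgfra-tdT* saline mice. Their part in these differences was not tested.

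Of 14 tested leukocyte genes, 14 were higher after bleomycin in *Acta2-tdT* cells on raw FPKM, where 70.4% of all genes tested were, and 3 of the 14 reached 1 FPKM in bleomycin mice only. On scaled FPKM 5 were higher and 2 lower, where 24.0% and 31.9% of all genes were. The 18 leukocyte genes summed to 766 to 1504 FPKM in *Acta2-tdT* saline, 4797 to 6930 in *Acta2-tdT* bleomycin, 51.5 to 122 in *Pdgfra-tdT* saline and 366 to 3244 in *Pdgfra-tdT* bleomycin mice, and no gene of the list was at 0 in all mice of a group. As a share of nuclear protein-coding FPKM they were at 2.09 to 3.03%, 1.05 to 2.13%, 0.0843 to 0.407% and 1.23 to 3.13%. Their part in the epithelial result was not tested.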

How the data were processed

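RNA of tdTomato-positive lung cells of 16 mice was sequenced on an Illumina HiSeq. The authors aligned reads to GRCm38 with TopHat2 2.1.1 and Bowtie2 2.2.9 and deposited FPKM per mouse from Cufflinks 2.1.1, with no scaling between mice. Of 49534 rows per table, those of the same gene were summed to 49452 genes. From tests 15 genes were left out for their Cufflinks status. Depth is unknown, since FPKM hold no counts, and no counting interval was computed. limma 3.58.1 (lmFit, eBayes with trend) in R 4.3.3 was run on log2(FPKM + 1), for genes that reached 1 FPKM in 4 or more mice, with a Benjamini-Hochberg threshold of 0.05. It was also run on simulated data for the saline comparison of the lines alone. All gene levels were raised there, so genes near 0 were not covered. Fold changes on this scale understate changes of low genes. Exact tests were two-sided permutations (SciPy 1.17.1), with Benjamini-Hochberg adjustment over 40 tests a scale. Figures used matplotlib 3.10.9 and tables pandas 2.3.3.

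The 10 genes, the lists and the receptor reference were chosen with earlier results of these data known. All 10 genes are named. From each list up to 5 genes of highest mean FPKM over 16 mice could be named; *Nkx2-1*, *Foxa2*, *Foxj1*, *Cyp2f2*, *Abca3*, *Slc34a2*, *Napsa*, *Hopx* and *Rtkn2* were added after their values were seen. The labels give no batch. Alternatives were scaling, quantile normalization, another pseudocount (0.1), no filter, sample quality weights, 1 fit of 16 mice, a replicate block and leaving out mice. Protein sequences were not used here.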

Additional observations from a re-analysis of the deposited data

Results flagged for a closer look

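The highest or lowest mouse of a group lay far from the others in 3 of 40 groups of 4 mice on log2(FPKM + 1), where chance alone flags about 1 in 20 groups. *Cdh1* in *Acta2-tdT* bleomycin mouse 7 was at 1.28 FPKM, with a gap of 0.891 of the group's range. *Lamp3* in *Acta2-tdT* bleomycin mouse 6 was at 0.234 FPKM, with a gap of 0.924, and in *Pdgfra-tdT* bleomycin mouse 7 at 0.365 FPKM, with a gap of 0.842, both at levels where no mouse passed the receptor reference.

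The difference made by bleomycin was larger in *Acta2-tdT* than in *Pdgfra-tdT* cells on raw FPKM for *Sftpd* (2.06 on the log2 scale), *Ager* (2.06) and *Epcam* (0.75), by limma's interaction term. *Epcam* reached 1 FPKM in *Acta2-tdT* bleomycin mice only, the group that brought it into the test, and *Ager* lost its call with no filter on low values (adjusted p = 0.1003). On FPKM scaled to the nuclear protein-coding sum the same terms were 0.66, 0.09 and 0.07, with adjusted p of 0.628 for *Sftpd* and 0.969 for *Ager*.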

How the results depend on the processing

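Calls of the epithelial markers depended on scaling. The raw counts of 6, 6 and 3 below include *Epcam*. Where *Epcam* passed the filter, it did so through the *Acta2-tdT* bleomycin mice alone, so its calls are a description. Shares of all genes are given for the raw and scaled fits only. In *Acta2-tdT* cells, limma called 6 of 7 higher on raw FPKM (70.4% of all genes), 0 on scaled FPKM (24.0%), 5 with no filter (*Scgb1a1* lost, adjusted p = 0.0891), 1 with quantile normalization and 0 on scaled FPKM with sample quality weights. *Scgb1a1* turned to -0.68 on scaled FPKM and to -1.36 with weights, where *Epcam* was -0.045. Between the lines with bleomycin 6 were higher (71.0% of all genes), against 0 on scaled FPKM (16.2%), 0 with quantile normalization, 3 with no filter (*Sftpa1*, *Scgb3a2* and *Epcam* lost) and 0 on scaled FPKM with weights, where 1 was lower (*Epcam*, -0.84), *Scgb3a2* was -1.13 and *Scgb1a1* -0.016. There *Scgb3a2* and *Epcam* turned to -0.73 and -0.67 on scaled FPKM and to -0.66 and -0.64 with quantile normalization. With saline, scaling with weights made 1 lower (*Sftpd*, -0.54). The interaction, 3 higher (36.6% of all genes), went to 0 on scaled FPKM (1.14%), 0 with quantile normalization, 1 with a pseudocount of 0.1, 1 with no filter (*Ager* and *Epcam* lost in both) and 0 on scaled FPKM with weights, where *Ager* was -0.35. Causes were not tested, beyond the change of scale itself.

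Leaving out 1 mouse gave 4 to 7 higher for bleomycin in *Acta2-tdT* cells, 4 to 6 between the lines with bleomycin, 0 in the other comparisons of 8 mice and 1 to 4 for the interaction. With all mice, 70.4%, 71.0% and 36.6% of all genes were higher in the first, second and last of these. Shares of all genes without 1 mouse are not given. *Epcam* was not tested when any 1 of the *Acta2-tdT* bleomycin mice was left out, so its call could not be counted there. The interaction fell to 1 without *Acta2-tdT* saline mouse 1 or 2, *Acta2-tdT* bleomycin mouse 6 or 8, *Pdgfra-tdT* saline mouse 1 or 4, or *Pdgfra-tdT* bleomycin mouse 7 or 8. Same-numbered mice of the lines share only a number (r of their deviations -0.25 to 0.13). With the replicate block the interaction called 1, the lines with bleomycin 4 and with saline 0. Unknown depth limits every value near 0.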

Other observations

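*Bpifa1*, a secreted protein of the upper airway epithelium, varied widely among the mice of 3 groups. Its highest value was 38.1 FPKM in *Pdgfra-tdT* bleomycin, 26.3 in *Acta2-tdT* bleomycin and 13.05 in *Pdgfra-tdT* saline mice, where the group medians were 0.649, 7.17 and 1.03 FPKM, and it stayed at 0.385 FPKM or less in *Acta2-tdT* saline mice.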
